A study of Homo sapiens with 8 samples.

Results

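The libraries labelled Molm13 were compared with those labelled U937 among the libraries that carry the OGFOD1 overexpression (OE) label. The comparison uses 4 of the 8 libraries of the series: the light and the heavy gradient pool of each line label. A library entered by its line and genotype labels, and a difference between the labels counted when it had the same direction in both pools. According to the labels, OGFOD1 was delivered to acute myeloid leukaemia cells by a lentiviral vector, and the lysates were treated with cycloheximide and separated on sucrose gradients. The light pool joins the free ribonucleoproteins with the monosome and disome fractions, and the heavy one joins everything with 3 or more ribosomes. The other 4 libraries are the same pools of the same line labels with the control genotype, and their library names carry the tag Scr. Beyond that tag, the labels do not say what vector the control cells carried, nor which promoter drove OGFOD1. Each line label holds 1 gradient under the OE label, so a value has no replicate, and the pools are parts of the same gradient.

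Molm13 and U937 are established human myeloid leukaemia lines that are usually told apart by their drivers. Molm13 carries a KMT2A::MLLT3 fusion and an internal tandem duplication in the receptor tyrosine kinase gene FLT3, and U937 is a monocytic line with a PICALM::MLLT10 fusion. Both fusions are known to keep HOXA genes and their cofactor MEIS1 active. OGFOD1 is a 2-oxoglutarate-dependent oxygenase that hydroxylates the ribosomal protein RPS23. In polysome profiling, an mRNA that carries many ribosomes sediments in the heavy fractions, so the same gene can be compared at its free and at its translated end.

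Raw read counts were given for 78932 gene identifiers. The libraries of the comparison held 45942973 counts (Molm13 label, light pool), 25741930 (Molm13, heavy), 52105186 (U937, light) and 74847383 (U937, heavy), and 27392 to 33915 genes had a count in any of the 8 libraries. Levels are given as CPM, the counts of a gene relative to the TMM-scaled total of its library, in the order Molm13 light, Molm13 heavy, U937 light and U937 heavy unless stated otherwise, and differences as log2 CPM of the Molm13 label minus the U937 label. They are shares of a library: fewer cells of a type and less RNA per cell cannot be told apart in such bulk material. After a filter on low counts 24289 genes were tested, of which 9202 had a mean of at least 10 CPM over the 4 libraries. Mitochondrial transcripts took 19.8% and 20.5% of the light libraries under the Molm13 and the U937 label and 0.360% and 0.941% of the heavy ones. In the control libraries they took 2.49% (Molm13) and 23.3% (U937) of the light pools and 0.797% and 0.848% of the heavy pools. The light Molm13 control library is thus unlike the other light libraries.

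The targeted gene did not follow the genotype label. OGFOD1 (ENSG00000087263, GRCh38 chromosome 16, 56451490 to 56479100, plus strand) was at 16.7 CPM (exact Poisson 95% interval 15.5 to 17.9) and 25.3 CPM (23.3 to 27.4) in the light and heavy pools labelled Molm13 OE. The pools labelled U937 OE held 10.1 CPM (9.20 to 10.98) and 12.4 CPM (11.7 to 13.2). All 4 values were below those of the control libraries, which were 33.0 and 44.4 CPM under the Molm13 label and 49.8 and 60.2 CPM under the U937 label. The intervals cover counting error only. Within the OE label OGFOD1 was higher under Molm13 in both pools, by 0.73 in the light and 1.02 in the heavy pool on the log2 scale. Its substrate RPS23 went opposite ways, with 2009, 1187, 3212 and 947 CPM and differences of -0.68 (light) and 0.33 (heavy). The libraries are therefore called by their labels throughout.

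The genes that define the lineage differed little between the line labels, as did most genes. Of 16 defining myelomonocytic and leukaemia genes, 15 differed by less than 1 on the log2 scale in both pools. Among the 14 at 10 CPM or more the largest differences were 0.675 (light) and 0.658 (heavy). Of all 9202 genes at that level, only 1.04% differed by at least 1 in the light pool and 7.09% in the heavy pool. The share of 15 of 16 is therefore not particular to these genes. FLT3 was at 149, 170, 93.6 and 202 CPM, so that the Molm13 label was higher in the light pool and the U937 label in the heavy pool. HOXA9, a homeobox factor held active in both kinds of leukaemia, was at 92.8, 67.9, 91.2 and 107 CPM, and MEIS1 at 21.5, 16.2, 24.9 and 23.1 CPM. CD4, which monocytes carry, was nearly equal between the labels at 33.8 and 34.4 CPM (light) and 74.99 and 72.4 CPM (heavy). The receptor of the macrophage growth factor, CSF1R, was at 21.8 and 20.9 CPM (light) and 40.2 and 42.4 CPM (heavy). The one defining gene with a larger difference was the monocyte receptor gene CD14, with 0 and 9 counts under Molm13 and 0 and 11 under U937, which is close to absence in libraries of this size.

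**Figure D1:**
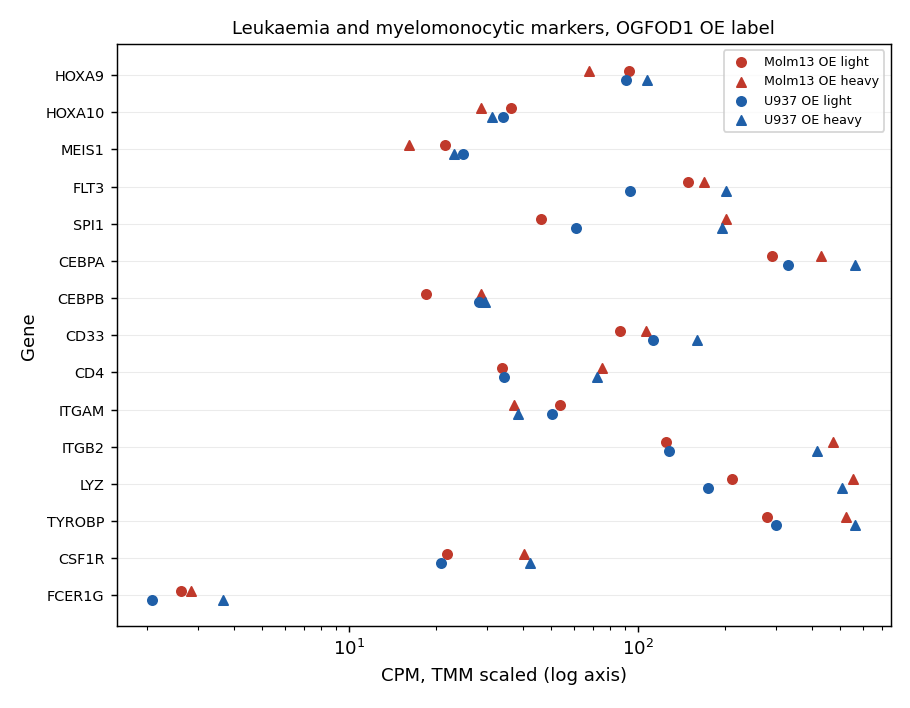
Level in CPM (TMM scaled, log axis) of 15 defining leukaemia and myelomonocytic genes in the 4 OE-labelled libraries; colour gives the line label and symbol the pool, and each point is 1 library. The red and blue symbols of the same shape lie close together in most rows, for example CD4 at 33.8 and 34.4 CPM in the light pool, and the gap between pools is often the larger one.

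Of the markers of other blood cells, some reached 10 CPM or more, and others did not pass the low-count filter. CD3D, part of the T cell receptor complex, was at 15.5, 70.5, 24.3 and 120 CPM, and NKG7, a cytotoxic granule gene, at 78.9, 483, 87.3 and 393 CPM. CD3D was lower under the Molm13 label in both pools, with differences of -0.65 and -0.76, and NKG7 differed by -0.14 and 0.30. Of the 3 T and NK cell genes at 10 CPM or more, 2 (66.7%) were higher under U937 in both pools, against 29.5% of all genes. Under Molm13 it was 0 (0%), against 23.4%. Of the 2 mast cell and basophil genes at 10 CPM or more, the tryptase gene TPSB2 was higher under Molm13 by 1.06 and 1.04, while the transcription factor gene GATA2 differed by 0.14 and -0.0030. A further tryptase gene, TPSAB1, was at 0.85, 8.49, 0.69 and 2.90 CPM. The summed level of the 9-gene mast cell list was 49.4, 117, 42.4 and 96.3 CPM, and its part in other differences was not tested. The other T cell genes CD3E, CD2 and LCK, the B cell genes MS4A1 and PAX5, the erythroid genes HBA1, HBB, KLF1 and GATA1, the platelet genes PF4 and GP9 and the mast cell gene CPA3 did not pass the low-count filter. Of 967 listed genes 842 were tested, and the 120 others with counts given outside the pseudoautosomal region reached at most 0.375 CPM in any of the 4 libraries.

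Over all genes the labels differed little. Across the 9202 genes at 10 CPM or more, log2 CPM correlated between the line labels with r = 0.972 in the light pool and 0.952 in the heavy pool. These correlations are across genes, which are not independent replicates, and they share depth and annotation. The 2 pools of one gradient were less alike, with r = 0.691 under the Molm13 label and 0.774 under the U937 label, and the genotype labels within a line and pool gave 0.849 to 0.914. The median absolute difference between line labels was 0.238 (light) and 0.381 (heavy) on the log2 scale, and 4824 genes (52.4%) lay within 0.5 in both pools. The libraries are nonetheless separate ones. The squared deviation of a gene's counts from equal CPM was on average 178 (light) and 361 (heavy) times the variance from counting error. Abundant genes weigh most in this average. The same direction in both pools was seen for 4870 genes (52.9%), 2152 of them (23.4%) higher under Molm13 and 2718 (29.5%) higher under U937. The differences in the light and in the heavy pool correlated with r = 0.135 across genes.

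A gene was counted as different when it was at least 1 apart on the log2 scale, a doubling, in the same direction in both pools. This held for 25 of the 9202 genes (0.272%), 15 higher under Molm13 (0.163%) and 10 higher under U937 (0.109%). The heavy pool alone passed that size in 652 genes (7.09%) and the light pool alone in 96 (1.04%). The same rule counted 217 genes (2.36%) between the control libraries of these lines, 104 between the genotype labels within Molm13 and 765 within U937. The light Molm13 control library held 2.49% mitochondrial counts against 23.3% in the light U937 control. Its part in the values set against the control libraries was not tested. No gene had at most 3 counts in both libraries of one line label and at least 10 CPM in both of the other, in either direction. These counts carry no test, since each label is 1 gradient.

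**Figure D2:**
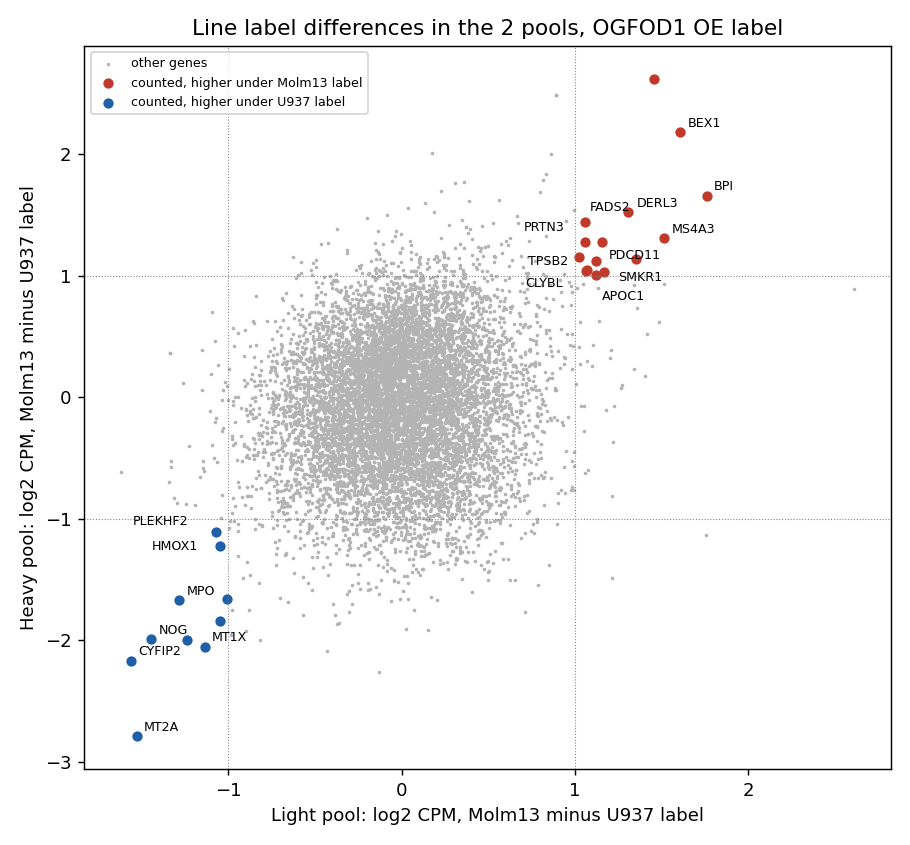
Difference in log2 CPM, Molm13 minus U937 label, in the light pool (horizontal axis) and in the heavy pool (vertical axis) for the 9202 genes at 10 CPM or more; dotted lines mark a difference of 1. The cloud of genes is centred near 0 and longer along the heavy axis (SD 0.557) than along the light axis (SD 0.370). In both pools, 15 red genes (higher under Molm13) and 10 blue genes (higher under U937) lie beyond 1. Symbols are given for the named coding genes.

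Of the 15 genes higher under the Molm13 label, 3 are on the list of myeloid granule genes. BPI, which encodes a bactericidal protein of azurophil granules, was at 25.3, 35.6, 7.46 and 11.2 CPM. Both Molm13 libraries were above both U937 libraries, by 1.76 (light) and 1.66 (heavy), and the control libraries had the same direction with differences of 1.54 and 1.20. MS4A3, a membrane protein of granulocyte precursors, was at 37.0, 19.9, 12.9 and 8.03 CPM, differences of 1.51 and 1.31. In the control libraries MS4A3 was the other way round, with 27.8 and 26.1 CPM under Molm13 and 107 and 58.7 CPM under U937. PRTN3, the serine protease proteinase 3, was among the most abundant transcripts at 1797, 15559.8, 863 and 6430 CPM, and the differences were 1.06 and 1.27.

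Other genes higher under the Molm13 label had various roles. The largest heavy-pool difference of a coding gene on this side belonged to BEX1, an X-linked adaptor gene, at 15.9, 105, 5.20 and 23.0 CPM, or 1.61 (light) and 2.18 (heavy). DERL3, which serves the degradation of misfolded proteins at the endoplasmic reticulum, was at 14.6, 62.1, 5.87 and 21.6 CPM. The fatty acid desaturase gene FADS2 was at 11.6, 21.2, 5.58 and 7.75 CPM, and the apolipoprotein gene APOC1 at 44.5, 68.4, 20.4 and 34.0 CPM. PDCD11, a factor of ribosomal RNA processing, differed alike in both pools, by 1.12 and 1.12. CLYBL, a mitochondrial citramalyl-CoA lyase, the mast cell tryptase gene TPSB2 and SMKR1 completed the coding genes, with differences of 1.03 to 1.17. The size rule itself sets each Molm13 value of these genes above the U937 value of the same pool. Across pools the labels overlapped, as the heavy U937 value of several was above the light Molm13 value.

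Of the 10 genes higher under the U937 label, 2 encode metallothioneins and 1 a haem oxygenase. MT2A, a small cysteine-rich protein that binds zinc and copper, was at 291 and 166 CPM under Molm13 and 840 and 1147 CPM under U937. All U937 values were above all Molm13 values, and the differences were -1.53 (light) and -2.79 (heavy). MT1X of the same family was at 203, 202, 447 and 840 CPM, differences of -1.14 and -2.06. HMOX1, the haem oxygenase that frees iron from haem, was at 4.99, 16.2, 10.4 and 38.0 CPM. In the control libraries HMOX1 was higher under Molm13, with 7.84 and 7.96 CPM against 0.37 and 1.26 CPM.

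The other coding genes higher under U937 were MPO, CYFIP2, NOG and PLEKHF2. MPO, the myeloperoxidase of azurophil granules, was at 6.37, 13.9, 15.5 and 44.2 CPM, differences of -1.28 and -1.67, opposite to the other granule genes named above. CYFIP2, a subunit of the WAVE complex that drives actin branching, was at 6.12, 4.61, 18.1 and 20.8 CPM, differences of -1.56 and -2.17 with no overlap between the labels. NOG, the secreted inhibitor of bone morphogenetic proteins, was at 6.60, 3.25, 18.0 and 13.03 CPM, again without overlap. PLEKHF2, an endosomal protein, was at 30.3, 18.6, 63.8 and 40.3 CPM. The genes counted without a coding annotation were ELFN1-AS1, H3P6, ENSG00000280087 and ENSG00000305447 on the Molm13 side and MT-TE, MTCO1P40 and ENSG00000259827 on the U937 side. Of these, ENSG00000305447 is not in GENCODE 29, and ENSG00000280087 has no settled type there. ENSG00000259827 lies over MT1X on the same strand, so their reads may be shared, and the same holds for copies of mitochondrial genes such as MTCO1P40. Of the 25 genes, 13 had the same direction in both control pools and 7 also passed the size there. In the control libraries 2.36% of all genes passed the size rule in either direction. The share of all genes with the same direction in these pools was not counted, so no agreement is read from the 13.

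**Figure D3:**
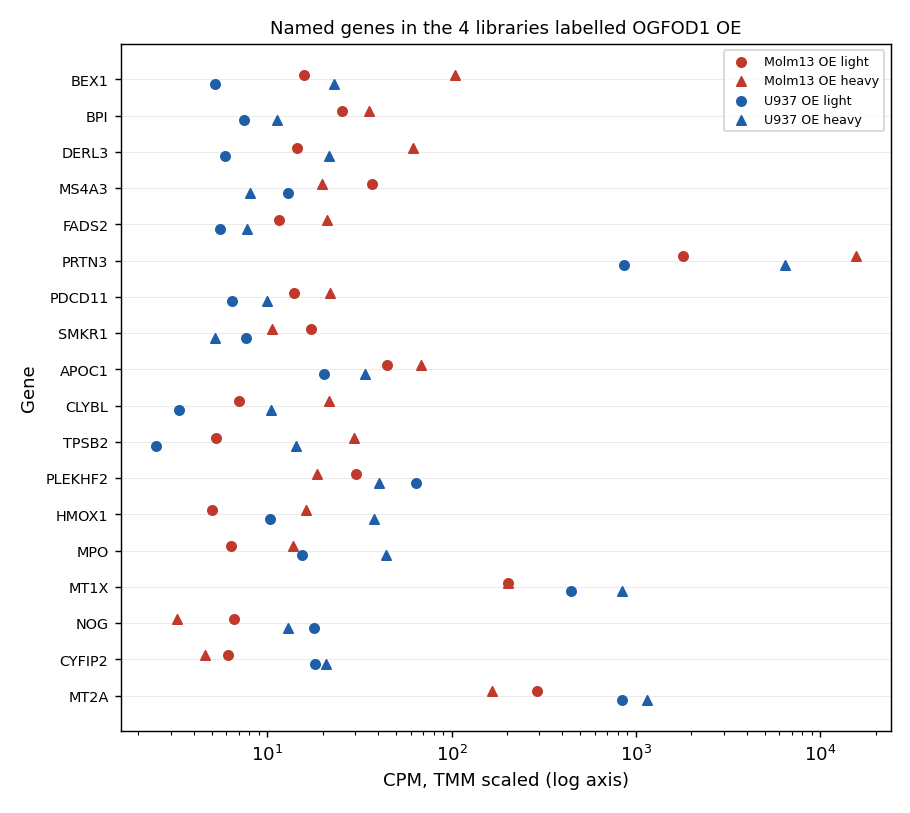
Level in CPM (TMM scaled, log axis) of the 18 named coding genes in the 4 OE-labelled libraries, ordered from the largest difference toward Molm13 at the top to that toward U937 at the bottom; each point is 1 library. For BPI both red points (25.3 and 35.6 CPM) lie right of both blue ones, and for MT2A both blue points (840 and 1147 CPM) lie right of both red ones.

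The metallothionein genes lie together on chromosome 16, within 250000 bases of OGFOD1, and are shown for that reason; members beyond MT2A and MT1X were chosen after their values were seen. In this family transcription is known to be driven by metal response elements, short promoter motifs bound by the factor MTF1. Their core was searched as TGCACNC and TGCGCNC on both strands in the 250 bases before the RefSeq start (GRCh38.p14). The sequences that were matched and lie outside the untranslated regions of GENCODE 29 are given with the core matches in capitals, MT1X as chr16:56682220-56682423 and MT1H as chr16:56669564-56669813, both on the plus strand.

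MT1X: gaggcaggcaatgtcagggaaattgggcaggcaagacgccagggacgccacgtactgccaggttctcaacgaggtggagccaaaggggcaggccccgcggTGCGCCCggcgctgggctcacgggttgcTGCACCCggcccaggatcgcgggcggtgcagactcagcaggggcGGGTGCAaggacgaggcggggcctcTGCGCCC

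MT1H: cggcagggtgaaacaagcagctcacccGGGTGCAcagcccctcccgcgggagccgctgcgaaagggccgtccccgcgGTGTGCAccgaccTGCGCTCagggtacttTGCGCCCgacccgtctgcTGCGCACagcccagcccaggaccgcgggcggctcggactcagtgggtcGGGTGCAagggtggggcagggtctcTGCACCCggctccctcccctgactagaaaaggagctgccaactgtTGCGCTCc

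MT1X held 4 matches, MT1H 8 and MT2A 7 in their windows. Among 35116 promoter windows of this length, 24.8% held at least 1 match and 0.370% held at least 4. A match is a stretch of letters and no measured binding site.

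The more abundant members of the cluster had 1 direction but unequal sizes. MT1E was at 180, 146, 332 and 492 CPM, differences of -0.88 and -1.75, and MT1G at 326, 254, 403 and 591 CPM, differences of -0.30 and -1.22. MT1F was closest between the labels, at 99.3, 118, 105 and 161 CPM. MT1H was barely expressed, with 40 and 5 counts under Molm13 and 191 and 496 under U937, or 0.83, 0.21, 3.79 and 6.20 CPM. In MT2A, MT1X, MT1E, MT1G, MT1F and MT1H the U937 value was above the Molm13 value of the same pool, and the gap was wider in the heavy pool. MT1M, inside the cluster, went the other way at a far lower level, with 20 and 5 counts under Molm13 and 1 and 11 under U937, differences of 3.10 and 0.52. MT3 reached at most 0.25 CPM and differed by 3.12 (light) and -2.28 (heavy). Near-identical copies could split reads among them, so the share of each single gene is uncertain. The genes next to OGFOD1 outside the cluster were closer to 0: NUDT21 differed by 0.22 and -0.28 and BBS2 by 0.34 and 0.03. In the control libraries MT2A differed by 0.77 (light) and -0.12 (heavy) and MT1X by 0.62 and -0.84.

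**Figure D4:**
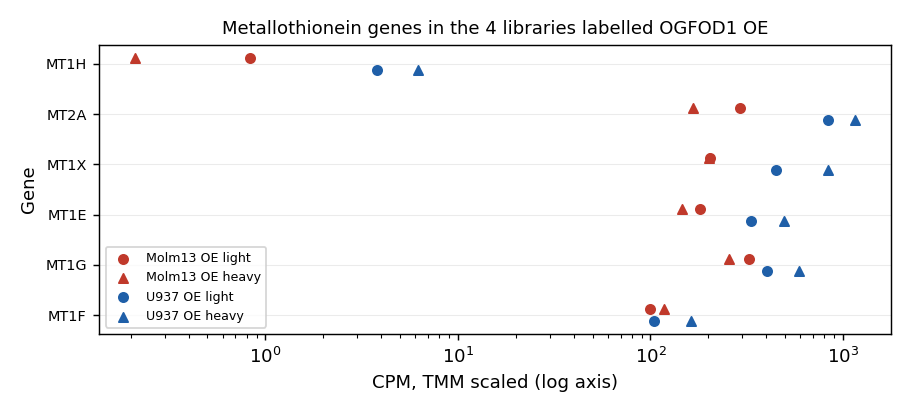
Level in CPM (TMM scaled, log axis) of 6 metallothionein genes in the 4 OE-labelled libraries; each point is 1 library, and MT1M and MT3, both near 0, are not drawn. The blue U937 points lie right of the red Molm13 points of the same shape in each row drawn, from MT1F (105 against 99.3 CPM in the light pool) to MT1H (6.20 against 0.21 CPM in the heavy pool).

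As a group, the myeloid granule genes were higher under the Molm13 label. Of the 17 list members at 10 CPM or more, 15 (88.2%) were higher under Molm13 in both pools, against 23.4% of all genes, and 2 (11.8%) higher under U937, against 29.5%. The median difference of the list was 0.33 (light) and 0.26 (heavy), beside -0.02 and -0.06 over all genes. Most members stayed below a doubling: the size rule counted BPI, MS4A3 and PRTN3 on the Molm13 side and MPO on the U937 side. ELANE, the neutrophil elastase gene, was at 295, 3192, 177 and 1308 CPM and differed by 0.74 and 1.29. AZU1, the azurocidin gene next to PRTN3 and ELANE on chromosome 19, differed by 0.42 and 0.87, and PRG2, an eosinophil granule protein, by 0.48 and 1.24. CTSG, the cathepsin G gene, differed by 0.03 and 0.88, and CST7, an inhibitor of cathepsins, by -0.02 and -0.03. In the control libraries the medians of the list were 1.54 (light) and -0.38 (heavy).

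The mRNAs encoded by the mitochondrial genome were lower under the Molm13 label, 12 of 13 (92.3%) in both pools against 29.5% of all genes, with medians of -0.39 and -0.68. MT-ND4, a subunit of respiratory complex I, was at 6839, 371, 13569 and 754 CPM, and MT-CO1 of complex IV at 10804, 853, 13869 and 2028 CPM. MT-ATP8 was the exception, with 0.21 in the heavy pool. Of the 50 nuclear genes for subunits of the same respiratory complexes, 19 (38.0%, against 23.4% of all genes) were higher under Molm13 in both pools and 3 (6%, against 29.5%) under U937, with medians of 0.02 and 0.32. Copies of mitochondrial genes in the nucleus may take part of such reads.

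Genes of cholesterol synthesis leaned to the Molm13 label, 13 of 24 (54.2%, against 23.4% of all genes) in both pools and 3 (12.5%, against 29.5%) to U937, with medians of 0.38 and 0.28. SQLE, the squalene epoxidase gene, differed by 0.99 and 0.42, and FDPS, which makes farnesyl diphosphate, by 0.34 and 1.09. The cytosolic ribosomal protein genes split by pool: 76 of 79 were lower under Molm13 in the light pool and 57 were higher in the heavy pool. Their medians were -0.37 and 0.24, beside -0.02 and -0.06 over all genes. In both pools 3 (3.80%, against 23.4% of all genes) were higher under Molm13. Under U937 it was 22 (27.8%, against 29.5%), which is close to the background. Class II antigen presentation genes were few at this level, with medians of -0.03 (light) and 0.43 (heavy). Of 6, 3 (50%, against 23.4% of all genes) were higher under Molm13 in both pools and 0 (0%, against 29.5%) under U937. HLA-DRA, an alpha chain of HLA-DR, differed by 0.82 and 1.01, but CD74 by -0.06 and 0.43. The other lists described are read against the same background, 23.4% of all genes higher under Molm13 and 29.5% under U937 in both pools. Myeloid transcription factor genes had 1 of 20 (5%) and 8 (40%), DNA replication 16 of 36 (44.4%) and 4 (11.1%), and mitosis 5 of 31 (16.1%) and 12 (38.7%). Glycolysis had 9 of 20 (45%) and 1 (5%), genes induced by hypoxia 9 of 24 (37.5%) and 8 (33.3%), and interferon-induced genes 6 of 15 (40%) and 3 (20%). The shares of the hypoxia list under U937 and of mitosis under Molm13 were close to the background. The size rule counted no member of these 6 lists. It counted only 0.272% of all genes, so this is no trait of lists this short.

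The line difference in the heavy pool varied with the pool a gene prefers. Pool preference was taken from the control gradient labelled U937, as heavy minus light log2 CPM, because that gradient has no part in the comparison. Across genes the heavy-pool difference correlated with it at r = 0.555 and the light-pool difference at r = 0.0641. The 2308 genes at least 1 higher in the heavy pool of that gradient had a median line difference of 0.41 in the heavy and 0.01 in the light pool. The 964 genes at least 1 higher in its light pool had medians of -0.47 and -0.09. The relation was not even at its lower end: the 207 genes more than 2 lower in the heavy pool had a median of -0.21 there, nearer 0 than the -0.56 of the 757 genes 1 to 2 lower. The spread between pools was also wider under the Molm13 label: heavy minus light log2 CPM had an SD across genes of 1.33 there and 1.07 under the U937 label. PRTN3, for example, was higher in the heavy pool (1797 and 15559.8 CPM under Molm13) and MT-ATP6 in the light pool (7097 and 180 CPM). Which part of any heavy-pool difference goes with how the gradients were cut into pools was not tested.

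**Figure D5:**
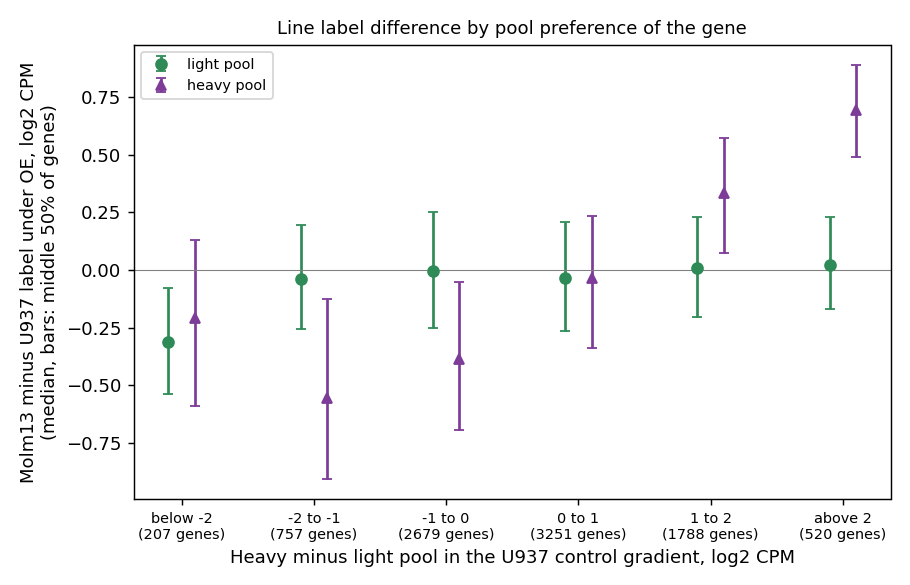
Molm13 minus U937 difference in log2 CPM under the OE label (vertical axis: median, bars span the middle 50% of genes) for genes grouped by heavy minus light log2 CPM in the U937 control gradient (horizontal axis, with the number of genes). In the heavy pool the median is -0.21 in genes more than 2 lower in the heavy pool and -0.56 in genes 1 to 2 lower, and from there goes up to 0.70 in genes more than 2 higher in it, while the light-pool medians lie between -0.31 and 0.02.

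With edgeR's quasi-likelihood test on all 8 libraries, 3 of 24289 genes (0.0124%) differed between the line labels under OE at a Benjamini-Hochberg adjusted p of 0.05, and 1066 had an unadjusted p under 0.05, where 1214 would be there without any difference. The spread in this fit is that between pools of the same gradients, not between cultures. GPR158, an orphan receptor gene known from nervous tissue, had 0 counts in both Molm13 libraries and 161 (light) and 213 (heavy) in the U937 libraries, or 3.19 and 2.66 CPM. Its U937 level was 51.2-fold a floor of 3 counts in the Molm13 library in the light pool and 21.02-fold in the heavy pool. These folds depend on that floor and leave out counting error. The edgeR adjusted p for GPR158 was 0.0228. All 4 control libraries had 0 counts for GPR158. The processed transcript ENSG00000259410 on chromosome 15 was at 0, 0.21, 3.18 and 4.45 CPM, a fitted log2 difference of -5.69 (SE 0.84, edgeR adjusted p = 0.0228). The long noncoding RNA ENSG00000285254 on chromosome 10 was at 0.60, 1.52, 0.06 and 0.04 CPM, a log2 difference of 4.40 (SE 0.66, edgeR adjusted p = 0.0228). All these are below 10 CPM, and none is among the 25 genes of the size rule. BPI had a fitted difference of 1.71 (SE 0.35, edgeR adjusted p = 0.170) and CYFIP2 one of -1.87 (SE 0.37, edgeR adjusted p = 0.155).

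The count of called genes rested on which libraries estimated the spread. Leaving out one OE-labelled library gave 5 to 8 calls, and leaving out one control library gave 102 (Molm13 light), 99 (Molm13 heavy), 107 (U937 light) and 101 (U937 heavy). The fit on the 4 OE-labelled libraries alone called 118 genes, among them the 3 above and 15 of the 25. DESeq2 called 19 genes and limma voom 0, with 1190 at an unadjusted p under 0.05. When the pools of each gradient were summed and the line labels compared over 4 gradients with edgeR, 0 of 25667 genes (0%) passed, 1243 had an unadjusted p under 0.05, the smallest adjusted p was 0.849, and DESeq2 called 28.

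Set against the control libraries, the line difference under the OE label departed in 32 of 24289 genes (0.132%) by the line-by-label term of edgeR. The term was negative, toward U937 under OE, in 30 of them. All 30 were higher under Molm13 in both control pools, and in 29 both U937 control libraries were the lowest of the 8. In 21 of the 32 genes the difference under OE was below 1 in both pools. CA9, the carbonic anhydrase of hypoxic cells, was at 5.18, 39.4, 9.03 and 54.0 CPM under OE but at 17.1 and 6.59 CPM (Molm13) and 0.30 and 0.43 CPM (U937) in the control libraries, a term of -5.45 (SE 0.62, edgeR adjusted p = 0.00120). HMOX1 had a term of -4.58 (SE 0.59, edgeR adjusted p = 0.00266) and MS4A3 one of 2.98 (SE 0.52, edgeR adjusted p = 0.0218). The number of genes with such a term moved to 843 without the heavy Molm13 control library, 808 without the heavy U937 control, 100 and 112 without the light Molm13 and U937 controls, and 51 and 53 without the heavy Molm13 and U937 OE libraries.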

How the data were processed

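The 4 gradients gave 8 libraries of human leukaemia cells. The authors deposited 1 table of raw counts per gene and library. Per the submitters' processing notes, reads were handled with cutadapt, STAR and featureCounts on GRCh38; the sources used here give no versions, annotation release or strand setting. With strand unknown, overlapping genes and antisense partners cannot be told apart. All columns with counts were matched to a library by name, so 0 were left out. Nothing in the labels says that pools come from separate cultures, so p-values measure only the spread between pools of the same gradients.

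From the counts, CPM and log2 CPM (prior count 2) were computed with TMM factors over the 8 libraries in R 4.3.3. The size rule asked for a difference of at least 1 on the log2 scale with 1 sign in light and heavy pool, for genes whose mean over the 4 OE-labelled libraries reached 10 CPM. edgeR 4.0.16 was fitted with line by label (4 levels) and pool within label, leaving 2 residual degrees of freedom; pools summed per gradient were fitted with line and label, leaving 1. Alternatives were DESeq2 1.42.0, limma 3.58.1 (voom), other scalings and filters, and leaving out each library. The scripts were tested on simulated data.

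Named genes were OGFOD1, RPS23, up to 12 coding genes in each direction counted by the size rule with at least 10 counts in each of the 4 libraries, defining markers, counted list members and up to 5 genes in each direction of the line-by-label term. Genes outside that rule were chosen after their values were seen. They were the genes counted by size without a coding annotation, the 3 genes called by edgeR and the metallothioneins beyond MT2A and MT1X. The neighbours of OGFOD1 and the list members given as examples were chosen in the same way. The comparison, the lists and the rules were chosen with earlier results of these data known. Symbols were taken from the reference tables for 17214 of the 24289 tested genes, and coordinates from GENCODE 29 (20592 of them). Promoter sequences are from RefSeq, GRCh38.p14, and matched 3 of the metallothionein genes shown. Some genes and a list that depends on one of them are not reported here.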

Additional observations from a re-analysis of the deposited data

Results flagged for a closer look

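In 8 genes the line difference under the OE label departed from that of the control libraries by the line-by-label term of edgeR on 8 libraries; these are the genes that the naming rule took from the 32 past the threshold. The spread tested is that between pools of the same gradients. For CA9 the term was -5.45 (adjusted p = 0.00120) and for HMOX1 -4.58 (adjusted p = 0.00266) by edgeR. PDGFB, a platelet-derived growth factor gene, had 52, 52, 34 and 181 counts under OE, 109 and 75 in the Molm13 controls and 1 and 2 in the U937 controls, a term of -5.16 (edgeR adjusted p = 0.0413). The 3 genes without a symbol had terms of -5.72 (ENSG00000234211, edgeR adjusted p = 0.0221), -6.43 (ENSG00000253474, edgeR adjusted p = 0.0405) and -5.39 (ENSG00000310471, edgeR adjusted p = 0.0310). ENSG00000310471 is not in GENCODE 29, so its type is not known here. ENSG00000253474 had 0, 6, 152 and 312 counts under OE and 28, 14, 11 and 4 in the controls, so the U937 OE libraries were the high ones. The term was positive for MS4A3, 2.98 (edgeR adjusted p = 0.0218), and for IL7R, the interleukin 7 receptor gene, 2.72 (edgeR adjusted p = 0.0406). IL7R was at 20.4, 10.4, 7.26 and 6.78 CPM under OE and at 5.67 and 3.72 CPM (Molm13) and 18.6 and 11.3 CPM (U937) in the controls.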

How the results depend on the processing

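The size rule counted 28 genes with DESeq2 size factors and 25 with TMM over the 4 OE-labelled libraries or a prior count of 0.5. Upper-quartile scaling counted 32, with 23 of the 25 among them; 24 (75%) were then higher under Molm13 and 8 under U937, against 60% and 15 to 10 as reported. That scaling moved the median of all genes in the heavy pool from -0.06 to 0.09. The count was 220 at a minimum of 1 CPM, 1081 with no minimum and 0 at a difference of 2. Leaving out one library leaves 1 pool and gave 96 to 652. For the edgeR test under OE the count of 3 was kept with other scaling factors and became 19 (DESeq2), 0 (limma voom), 118 (4 OE-labelled libraries), 41 (no filter) and 5 to 107 with one library left out. Pools of a gradient pair the libraries, and without that replicate block 0 genes were called, with 418 at an unadjusted p under 0.05. The line-by-label term passed in 85 genes with DESeq2 and in 23 to 843 with one library left out. Over gradients DESeq2 called 28 genes; leaving out a gradient was not run, as it leaves no residual degrees of freedom. The causes were not tested. With the other scalings the granule list had 15 or 16 members higher under Molm13 and 1 under U937, and the mitochondrial mRNAs 0 and 12. Of 256 values for single genes and lists under alternatives, 218 moved by less than the set range and 38 by more. The sign changed in 17 of them: in 2 for RPS23, to 0.33 without either light library, and in 15 for the medians of 13 lists, mostly with 1 pool alone. MHC class I genes went from -0.03 to 0.05 with upper-quartile scaling, mitosis from -0.14 to 0.08 and haematopoietic receptors from 0.04 to -0.25 in the heavy pool alone. No gene counted by the size rule and tested so changed sign. Depth limits low genes most in the heavy Molm13 library, where 3 counts are 0.127 CPM.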
